A study of Mus musculus with 2 samples.

Results

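The subject is a set of 10 genes whose proteins build or maintain the transverse tubules (T-tubules) and caveolae of the heart muscle cell: Bin1, Cav3, Cavin1, Cavin4, Jph1, Jph2, Dysf, Mtm1, Dnm2 and Ank2. The genes were chosen by symbol, and all 10 were found among the 55536 genes of the deposited gene tables. The study sequenced total RNA from heart tissue of 2 female mice of strain B6CASTF1/J, a hybrid of the C57BL/6J and CAST/EiJ strains, aged 2 months. There was 1 group, with 1 library per animal and no treatment or genetic change named in the labels, so levels and transcript use are described and animal 2 is set against animal 1. Each library was made from 300 ng of RNA with ERCC spike-ins, and the spike-in label names a profile for stranded, ribosomal RNA-reduced libraries. The labels give each animal its own biosample record and replicate number, but the same donor record. Reads were assigned to the mm10 reference, and whether the CAST/EiJ allele of the hybrid affected any value was not tested.

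T-tubules are inward folds of the cardiomyocyte surface that carry the action potential to the interior, where they meet the sarcoplasmic reticulum at junctions called dyads. BIN1 bends membrane and helps to form the tubules, junctophilins tether the tubule to the reticulum, and ankyrin-B holds ion transporters at these sites. Caveolae are small flask-shaped pits whose coat is made of caveolins and cavins; dysferlin, myotubularin and dynamin 2 act in membrane repair, phosphoinositide turnover and membrane fission, and mutations in several of these genes cause muscle disease.

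The gene tables held 41790009 reads assigned to genes in animal 2 and 41862417 in animal 1, so a count of 0 allows a level of up to 0.0718 CPM in animal 2 and 0.0717 CPM in animal 1, by counting error alone. As a check of the label heart, Myh6, the main adult ventricular myosin of the mouse, stood at 8371 TPM in animal 2 and 7602 TPM in animal 1. The summed level of 4 skeletal muscle markers was 1.96 TPM in animal 2 and 1.59 TPM in animal 1. Of these markers Myh1, a fast skeletal myosin, was lower in animal 2, with 1 read in animal 2 and 22 reads in animal 1 (ratio 0.0431, 0.00104 to 0.267, exact binomial adjusted p 4.50e-05). TPM is a level that counts transcripts, with reads divided by transcript length, so genes can be compared with each other on it. The deposited files held 2 quantifications of the same libraries, called here the first and the second, and levels are from the first unless stated. In whole tissue, fewer cells of a type and less RNA per cell cannot be told apart.

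The 10 genes spanned a wide range of levels, with the cardiac junctophilin at the top and Bin1 at the bottom. Their TPM summed to 555 in animal 2 and 454 in animal 1. Jph2, Ank2 and Cavin1 together made up 69.6% of that sum in animal 2 and 69.2% in animal 1. The highest gene, Jph2, exceeded the lowest, Bin1, 44.8-fold in animal 2 and 53.0-fold in animal 1. All 10 were above 1 TPM in both animals, where the median protein-coding gene of at least 1 TPM (11251 genes) stood at 9.31 TPM in animal 2 and 7.94 TPM in animal 1.

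**Figure D1:**
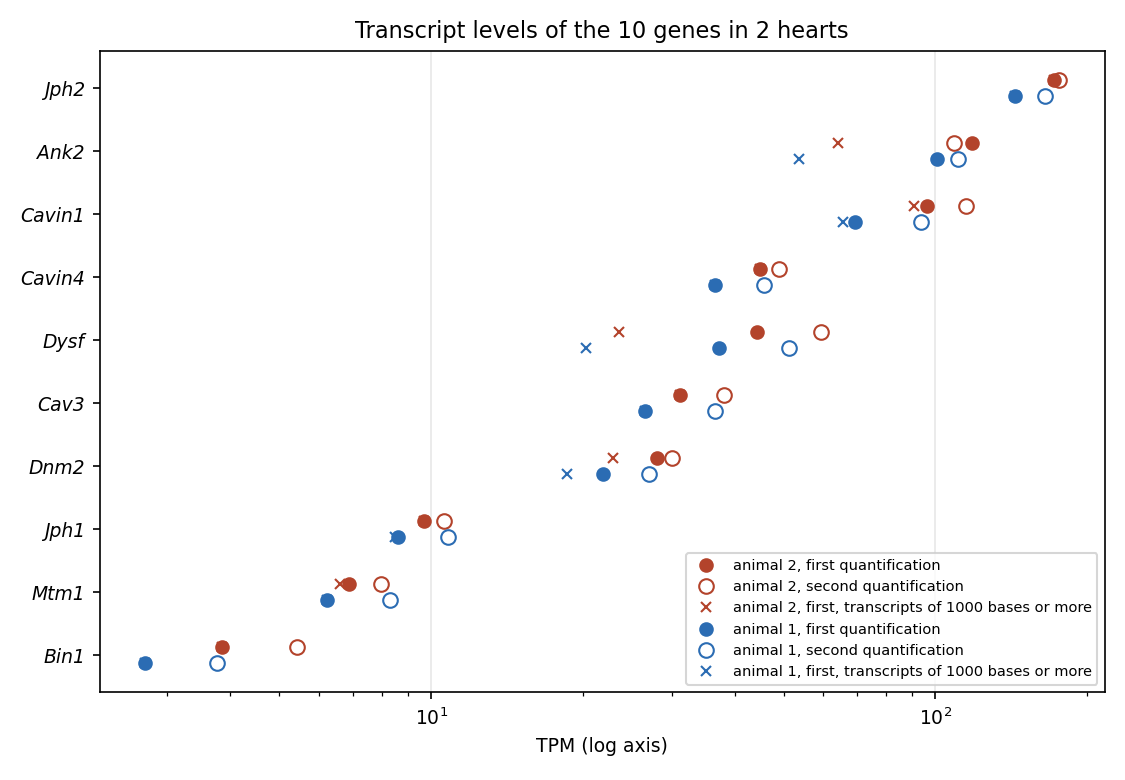
Levels of the 10 genes in TPM on a log axis, with animal 2 in red above animal 1 in blue. Filled circles are the first quantification, open circles the second, and crosses the first quantification summed over transcripts of at least 1000 bases only. Ank2 and Dysf are the genes whose crosses sit far to the left of their circles: Ank2 averaged 109.8 TPM over all transcripts and 58.8 TPM over the long ones, and Dysf 40.7 and 22.0 TPM.

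The junctophilins, which bridge the tubule membrane and the sarcoplasmic reticulum, differed strongly from each other in level. Jph2 (chr2:163336242-163397993, mm10), the junctophilin known as the cardiac form, had 172 TPM in animal 2 and 144 TPM in animal 1 (158 ± 20.1, SD, n = 2). It ranked 363rd among protein-coding genes, above 96.8% of those with at least 1 TPM. Jph1 (chr1:16964560-17097889), best known from skeletal muscle, had 9.69 TPM in animal 2 and 8.58 TPM in animal 1 (9.13 ± 0.785, SD, n = 2). The ratio of Jph2 to Jph1 was 17.8 in animal 2 and 16.7 in animal 1, and 15.9 on average in the second quantification. Jph3 and Jph4, known as neuronal junctophilins, averaged 0.025 and 0.075 TPM.

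Ank2 (chr3:126921612-127499350), which encodes ankyrin-B, had 118 TPM in animal 2 and 101 TPM in animal 1 (109.8 ± 12.0, SD, n = 2). Its place in the order depended on which transcripts were counted. Ank3, the other large ankyrin gene of the same family, averaged 26.5 ± 2.72 TPM (SD, n = 2), so that Ank2 stood 4.16 times as high in animal 2 and 4.13 times in animal 1. In the second quantification this ratio was lower, 3.03 in animal 2 and 3.43 in animal 1.

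The caveolar coat genes were led by Cavin1. Cavin1 (chr11:100956733-100970887), required for caveolae in most tissues, had 96.5 TPM in animal 2 and 69.4 TPM in animal 1 (82.9 ± 19.1, SD, n = 2). Cavin4 (chr4:48663514-48673502), the muscle-restricted cavin, had 44.9 TPM in animal 2 and 36.5 TPM in animal 1 (40.7 ± 5.93, SD, n = 2). Cavin1 was thus 2.15 times as high as Cavin4 in animal 2 and 1.90 times in animal 1. Cav3 (chr6:112459505-112472872), the muscle caveolin, had 31.1 TPM in animal 2 and 26.6 TPM in animal 1 (28.9 ± 3.23, SD, n = 2). Cav1, the caveolin of endothelial cells and adipocytes, was the higher of the pair, and the ratio of Cav3 to Cav1 was 0.333 in animal 2 and 0.392 in animal 1. The endothelial markers summed to 434 TPM in animal 2 and 340.1 TPM in animal 1. Adipocyte markers summed to 54.1 TPM in animal 2 and 20.6 TPM in animal 1. The part of either cell type in the Cav1 level was not tested.

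Among the genes of membrane repair and remodelling, dysferlin was the highest over all transcripts and Bin1 the lowest. Dysf (chr6:84008590-84211060) had 44.2 TPM in animal 2 and 37.3 TPM in animal 1 (40.7 ± 4.85, SD, n = 2). Dnm2 (chr9:21424908-21507759), the ubiquitous dynamin GTPase that cuts membrane necks, had 28.1 TPM in animal 2 and 21.9 TPM in animal 1 (25.0 ± 4.36, SD, n = 2). Dnm2 and Dysf each stood far above their nearest relatives. Dnm1, the neuronal dynamin, averaged 1.83 TPM, and Myof, the ferlin closest to dysferlin, 3.30 TPM. Mtm1 (chrX:71210767-71315691), a phosphatase of phosphoinositides that is mutated in X-linked myotubular myopathy, had 6.86 TPM in animal 2 and 6.21 TPM in animal 1 (6.54 ± 0.46, SD, n = 2). Its relative Mtmr2 averaged 8.21 TPM.

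Bin1 (chromosome 18), which bends membrane into tubules, had 3.84 TPM in animal 2 and 2.71 TPM in animal 1 (3.27 ± 0.799, SD, n = 2). These values rested on 238 reads in animal 2 and 185 reads in animal 1, the fewest of the 10 genes. Amph, the related amphiphysin of nerve terminals, averaged 0.485 TPM. The second quantification gave Bin1 5.42 TPM in animal 2 and 3.76 TPM in animal 1, again the lowest of the 10.

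Most neighbours in the order of levels did not overlap between the animals. The order was Jph2, Ank2, Cavin1, Dysf, Cavin4, Cav3, Dnm2, Jph1, Mtm1 and Bin1. Dysf and Cavin4 overlapped, as did Cav3 and Dnm2, in the first quantification. In the second quantification Ank2 and Cavin1 overlapped, where Ank2 had 109 TPM in animal 2 and 111 TPM in animal 1. Cavin1 had 115 TPM in animal 2 and 93.8 TPM in animal 1 there. The annotation places exons of 6 other genes on the opposite strand over exons of 5 members. Of these, Tmed1 shares 207 exon bases with Dnm2 and had 18.0 TPM in animal 2 and 16.1 TPM in animal 1. The other 5 had at most 4 reads in an animal. No source states whether reads were counted by strand, so reads of Dnm2 and Tmed1 in the shared bases may not have been told apart.

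Transcript use fell into 2 kinds, genes with a dominant transcript and genes with several. Cav3 and Cavin4 have 1 annotated transcript each. Jph2-201 held 99.7% of the TPM of Jph2 in animal 2 and 99.4% in animal 1. Jph1-201 held 100% of the Jph1 TPM in animal 2 and 98.8% in animal 1, and Cavin1-201 held 93.9% of the Cavin1 TPM in animal 2 and 94.6% in animal 1. Across 10314 protein-coding genes of at least 1 TPM with more than 1 transcript, the major transcript held a median of 65.2% of the gene. The other 5 members divided their TPM among several transcripts.

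Bin1 was carried mainly by a short coding form. Bin1-205, with 1230 coding bases (410 codons), held 72.4% of the Bin1 TPM in animal 2 and 72.0% in animal 1. Bin1-202, with 1431 coding bases, held 24.7% in animal 2 and 16.6% in animal 1. Bin1-206 had 0 estimated reads in animal 2 and 9.32 in animal 1. The longest form, Bin1-201, with 1764 coding bases, received 0 reads in both animals and in both quantifications. The annotation gives the Bin1 coding region 6 segments that some coding transcripts hold and others lack. Among coding transcripts, 4 of them occur in Bin1-201 alone and therefore had a share of 0 of the coding TPM. Over transcripts of all types, the 24-base and 108-base segments among these had 2.86% in animal 2 and 4.80% in animal 1, the shares of the retained-intron transcript Bin1-204. The other 2 of the 6 are a 129-base segment, held by Bin1-202 among the coding transcripts with reads, and a 72-base segment, held by Bin1-202 and Bin1-206. The 129-base segment was present in 25.5% of the coding TPM that spans it in animal 2 and 17.4% in animal 1 (21.5 ± 5.68%, SD, n = 2). The 72-base segment was present in 25.5% in animal 2 and 24.4% in animal 1 (24.9 ± 0.743%, SD, n = 2).

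Bin1 transcript values were limited by the number of reads. The deposited assignment spread of Bin1-205 was 26.2 reads of 165 in animal 2 and 17.8 of 129.6 in animal 1. By the second quantification, Bin1-205 held 56.8% of the TPM in animal 2 and 65.4% in animal 1, and the 539-base Bin1-203 held 18.0% in animal 2, from 7.45 estimated reads, and 0% in animal 1. Bin1-205 was the largest form in both animals and both quantifications. Whether any of the Bin1 segments is the membrane-binding exon known from skeletal muscle BIN1 was not determined.

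**Figure D2:**
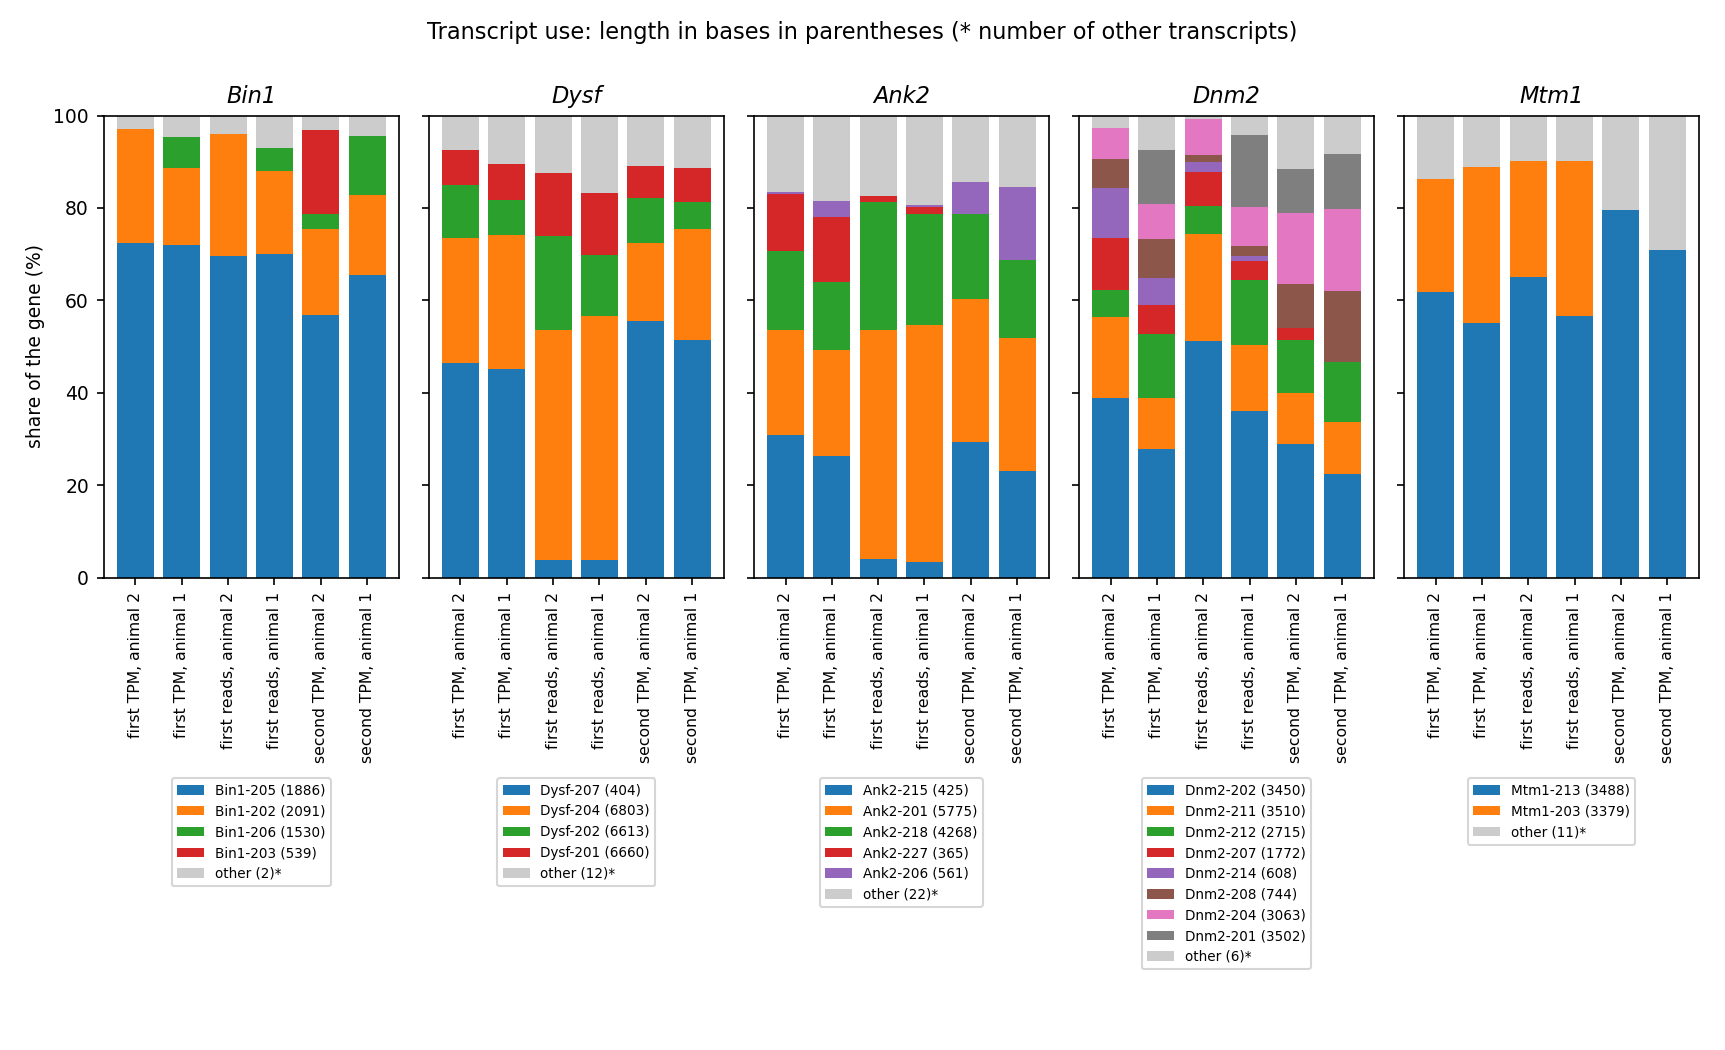
Share of each gene held by its transcripts, in percent, for the 5 genes with several transcripts, with the length of each transcript in bases in the legend. In each panel the bars give the first quantification by TPM, the same by reads, and the second quantification by TPM, with animal 2 left of animal 1 in each pair; the 404-base Dysf-207 and the 425-base Ank2-215 hold 46.4% and 30.9% by TPM but 3.87% and 3.90% by reads in animal 2.

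Dysf was the member whose major transcript differed most between its share of TPM and its share of reads. Dysf-207, a 404-base transcript with no coding sequence that lies at the 3′ end of the gene, held 46.4% of the Dysf TPM in animal 2 and 45.1% in animal 1. It held 3.87% of the Dysf reads in animal 2 and 3.72% in animal 1, since TPM divides reads by transcript length. Only 155 of its bases are outside the exons of the long coding transcripts. The long Dysf-204, with 6246 coding bases, held 27.0% of the TPM and 49.6% of the reads in animal 2, and 29.1% of the TPM and 52.8% of the reads in animal 1. Summed over transcripts of at least 1000 bases, Dysf stood at 23.6 TPM in animal 2 and 20.3 TPM in animal 1, below Cav3 in both animals. For Dysf-207 the second quantification gave 55.6% of the TPM in animal 2 and 51.4% in animal 1.

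The Dysf coding transcripts came from 2 groups of start sites 10795 bases apart. The upstream group supplied 59.0% of their TPM in animal 2 and 64.3% in animal 1, and the downstream group 41.0% in animal 2 and 35.7% in animal 1. In the second quantification the upstream group supplied 58.7% in animal 2 and 71.7% in animal 1. The upstream group was the larger in both animals and both quantifications. Assignment to single transcripts was uncertain. Dysf-202, of the downstream group, has 0 exon bases that the other long coding transcripts lack. Its assignment spread was 299 reads of 1101 in animal 2 and 321 of 683 in animal 1, and the spread of the group shares was not determined. The promoters of both starts, from 250 bases before to 50 bases after each RefSeq start site (GRCm38.p6), are shown because coding transcripts from both starts carried reads, with CANNTG sites in capitals; the upstream one is chr6:84008348-84008647 and the downstream one chr6:84019136-84019435, both on the plus strand.
Dysf upstream promoter: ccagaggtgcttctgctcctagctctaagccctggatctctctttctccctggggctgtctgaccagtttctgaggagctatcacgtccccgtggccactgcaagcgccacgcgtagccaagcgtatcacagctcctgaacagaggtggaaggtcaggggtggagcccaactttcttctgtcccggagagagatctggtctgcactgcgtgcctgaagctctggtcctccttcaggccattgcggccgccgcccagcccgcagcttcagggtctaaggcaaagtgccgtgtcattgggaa
Dysf downstream promoter: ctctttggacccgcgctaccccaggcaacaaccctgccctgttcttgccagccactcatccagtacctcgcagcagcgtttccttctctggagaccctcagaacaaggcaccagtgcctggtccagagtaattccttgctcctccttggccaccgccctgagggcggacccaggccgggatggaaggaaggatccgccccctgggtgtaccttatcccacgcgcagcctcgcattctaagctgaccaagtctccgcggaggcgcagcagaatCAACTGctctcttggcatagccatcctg
The upstream window held 13 CG dinucleotides and the downstream window 14, where the median of 32851 mouse promoters of the same length was 7. At least as many were held by 37.9% of promoters for the upstream window and 36.3% for the downstream window. The motifs were searched on both strands, and no match of CANNTG overlapped one of the others. CANNTG had 0 matches in the upstream window and 1 in the downstream window, 22 bases past the start site, and 72.3% of promoters held it. CCAAT had 1 match in the upstream window, 42 bases past the start site, and 0 in the downstream window, and 37.4% of promoters held it. Neither window held TATAAA, which 13.6% of promoters held.

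Dysf coding transcripts also differed in 3 in-frame segments that carried reads on both sides, shown because the shares below refer to them.
Dysf 93-base segment (chr6:84064471-84064563): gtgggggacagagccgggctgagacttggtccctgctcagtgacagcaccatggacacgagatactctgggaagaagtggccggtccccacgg
Dysf 42-base segment (chr6:84096477-84096518): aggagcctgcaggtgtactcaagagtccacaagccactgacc
Dysf 63-base segment (chr6:84157139-84157201): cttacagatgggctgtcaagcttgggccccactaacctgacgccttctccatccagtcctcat
The 93-base segment was present in 22.2% of the spanning coding TPM in animal 2 and 24.1% in animal 1 (23.1 ± 1.35%, SD, n = 2). The 42-base segment was the commonly included one, at 72.8% in animal 2 and 68.7% in animal 1 (70.7 ± 2.92%, SD, n = 2). The 63-base segment was mostly skipped, at 7.87% in animal 2 and 9.78% in animal 1. For the 63-base segment the second quantification gave higher shares, 18.8% in animal 2 and 20.7% in animal 1.

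Dnm2 had 10 transcripts with at least 1% of its TPM, the most of the 10 genes, against 9 for Ank2. Its main coding choice was between a pair of mutually exclusive exons. Mutually exclusive exons of this gene, in the middle part of the protein, are known in mammals. The 139-base exons lie at chr9:21478899-21479037 and chr9:21480407-21480545 on the plus strand, and are shown with the bases that differ between them in an ungapped comparison in capitals.
Dnm2 upstream exon: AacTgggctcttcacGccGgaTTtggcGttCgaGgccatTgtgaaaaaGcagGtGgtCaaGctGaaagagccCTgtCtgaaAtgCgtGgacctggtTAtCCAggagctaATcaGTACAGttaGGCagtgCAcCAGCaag
Dnm2 downstream exon: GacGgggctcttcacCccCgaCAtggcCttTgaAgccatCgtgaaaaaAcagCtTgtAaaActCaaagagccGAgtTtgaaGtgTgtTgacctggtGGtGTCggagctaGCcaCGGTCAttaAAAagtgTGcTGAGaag
The exons differed at 44 of 139 positions (68.3% identical). The upstream exon was present in 68.6% of the spanning coding TPM in animal 2 and 62.0% in animal 1, and the downstream exon in 31.4% in animal 2 and 38.0% in animal 1 (34.7 ± 4.71%, SD, n = 2, for the downstream exon). Every coding transcript that spans the pair holds exactly 1 of them in the annotation, so the shares add to 100%. With the second quantification the upstream exon held 65.3% in animal 2 and 58.5% in animal 1, so the upstream exon was the larger in both animals and both quantifications.

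A pair of short segments also differed between the annotated Dnm2 coding transcripts, and the sequences are shown because the shares below refer to them.
Dnm2 30-base segment (chr9:21487047-21487076): ctgtttctatactgaggagctggtcacagg
Dnm2 12-base segment (chr9:21490658-21490669): ggggagatcttg
The 12-base segment was present in 40.3% of the spanning coding TPM in animal 2 and 47.3% in animal 1. In the second quantification the shares were 52.7% in animal 2 and 60.7% in animal 1, so which form was the commoner depended on the quantification. The 30-base segment was present in 8.28% in animal 2 and 10.2% in animal 1, and it is held by Dnm2-208 alone, an incomplete 744-base transcript with 37.6 estimated reads in animal 2 and 43.6 in animal 1. Muscle dynamin 2 is known to include a short extra exon, and whether this segment is that exon was not determined.

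Single Dnm2 transcripts were uncertain, and the assignment spread of the segment shares was not determined. Dnm2-202 held 38.9% of the TPM in animal 2 and 27.9% in animal 1, and Dnm2-211 17.4% in animal 2 and 10.9% in animal 1. Dnm2-212, Dnm2-204 and Dnm2-208 held 5.97%, 6.69% and 6.22% in animal 2, and 13.9%, 7.57% and 8.30% in animal 1. Dnm2-201 was given 0 reads in animal 2 and 326 in animal 1, with assignment spreads of 57.8 reads in animal 2 and 118 in animal 1. Dnm2-201 has 2 exon bases that the other long coding transcripts lack, and the second quantification gave it 320.2 reads in animal 2 and 356 in animal 1. Transcripts with a retained intron or marked for nonsense mediated decay held 23.4% of the Dnm2 TPM in animal 2 and 14.4% in animal 1, and 4.24% and 2.85% in animal 2 and animal 1 in the second quantification.

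Ank2 has 27 annotated transcripts, and its short ones decided its TPM. Ank2-215, a 425-base fragment with incomplete ends, held 30.9% of the Ank2 TPM in animal 2 and 26.2% in animal 1, but 3.90% of the reads in animal 2 and 3.34% in animal 1. The 365-base Ank2-227, also incomplete, held 12.5% of the TPM in animal 2 and 14.1% in animal 1, and had 0 reads in both animals in the second quantification. That quantification instead gave the incomplete 561-base Ank2-206 7.01% of the TPM in animal 2 and 15.8% in animal 1. Ank2-201, with 25 exons and 3150 coding bases, held 22.6% of the TPM and 49.7% of the reads in animal 2, and 23.1% of the TPM and 51.4% of the reads in animal 1. Summed over transcripts of at least 1000 bases, Ank2 stood at 64.0 TPM in animal 2 and 53.6 TPM in animal 1, below Cavin1 at 90.6 TPM in animal 2 and 65.7 TPM in animal 1. The coding segment of 92 bases that Ank2-215 shares with Ank2-209 and not with the long transcripts is shown because the fragment's TPM rests partly on it.
Ank2 92-base segment (chr3:126926803-126926894, minus strand): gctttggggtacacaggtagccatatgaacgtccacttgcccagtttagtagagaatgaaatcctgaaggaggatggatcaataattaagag

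Transcripts under 1000 bases made up 45.8% of the Ank2 TPM in animal 2 and 47.1% in animal 1, and 46.4% of the Dysf TPM in animal 2 and 45.5% in animal 1. Over 8662 protein-coding genes that have such transcripts the median was 16.0%, and 14.0% of these genes were at or above the mean of Ank2 and 14.2% at or above that of Dysf.

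The long Ank2 transcripts were also grouped by annotated start. Ank2-218 has incomplete ends and covers the 5′ part of the gene, and Ank2-201 covers the 3′ part, so reads of 1 message split between them cannot be told apart from separate starts. Ank2-201, whose annotated start is internal, supplied 49.6% of the TPM of coding transcripts of at least 1000 bases in animal 2 and 50.6% in animal 1. Ank2-218, whose start lies farthest upstream, supplied 37.5% in animal 2 and 32.0% in animal 1. A start group 90291 bases downstream of that supplied 12.5% in animal 2 and 17.0% in animal 1. The giant coding exon of 6198 bases, known from the neuronal form of ankyrin-B, was present in 2.85% of the spanning coding TPM in animal 2 and 2.54% in animal 1 (2.70 ± 0.221%, SD, n = 2). The second quantification gave it 2.33% in animal 2 and 1.97% in animal 1.

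The leading Mtm1 transcripts of the first quantification, Mtm1-213 and Mtm1-203, start at different sites but hold the same alternative coding segments. Mtm1-213 held 61.8% of the TPM in animal 2 and 55.1% in animal 1, and Mtm1-203 24.5% in animal 2 and 33.8% in animal 1. Both have 1809 coding bases, and their starts lie 4239 bases apart. In the second quantification Mtm1-213 held 79.6% in animal 2 and 70.9% in animal 1 and Mtm1-203 had practically no reads, so the share of Mtm1-203 rested on the first quantification. The downstream start group held 28.4% of the TPM of coding transcripts of at least 1000 bases in animal 2 and 38.0% in animal 1 in the first quantification. In the second it held 6.29% in animal 2 and 14.6% in animal 1. Coding transcripts with a 2-base segment that Mtm1-213 lacks had these same shares in the second quantification, and 0% in the first. The assignment spread of Mtm1-203 was 94.9 reads of 184 in animal 2 and 117 of 256 in animal 1.

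**Figure D3:**
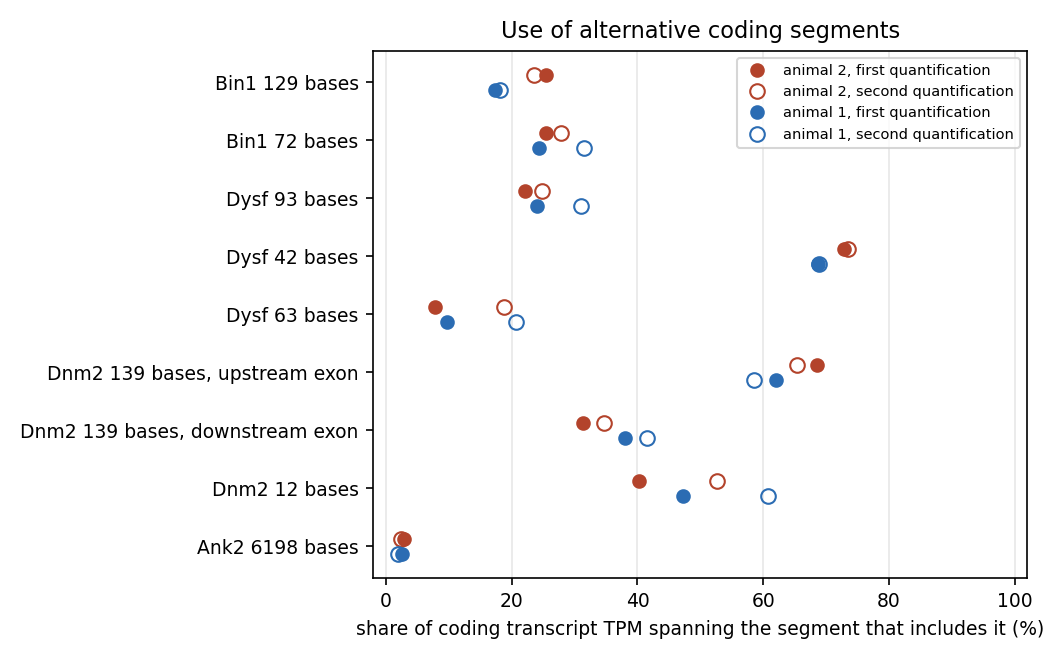
Share of the spanning coding TPM that includes each alternative coding segment, in percent, with animal 2 in red above animal 1 in blue, filled circles for the first quantification and open circles for the second. The Dysf 42-base segment is included in 68.7% to 73.5%, the Bin1 129-base segment in 17.4% to 25.5%, and the giant Ank2 exon in 1.97% to 2.85%.

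The largest difference between the hearts among the 10 genes was 1.22-fold. Reads were scaled between libraries by TMM factors, and an exact binomial test with Benjamini-Hochberg adjustment over 16133 genes compared the libraries, so that it covers counting error alone and not variation between mice. At an adjusted p of at most 0.05 and at least 2-fold, 0 of the 10 members were called, against 1.38% of all genes tested (0.483% higher in animal 2 and 0.893% higher in animal 1). The count at 2-fold was also 0 with total-count scaling, DESeq2 size factors, no count filter and the second quantification. Of the members, 4 had an unadjusted p under 0.05, a threshold for which the share of all genes was not determined. With no fold minimum 1 of 10 differed, Cavin1, against 11.3% of genes tested. The log2 ratios of the members, animal 2 over animal 1, ran between -0.12 and 0.29, with a median of 0.02. On TPM the median gene was 0.22 higher in animal 2 on the log2 scale, and the source of this shift was not tested.

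Cavin1 had 10362 reads in animal 2 and 8341 reads in animal 1, a scaled ratio of 1.18 (95% interval 1.14 to 1.21) with an exact binomial adjusted p of 8.77e-27. Bin1 had the largest ratio, 1.22, but an interval of 1.00 to 1.49 and an exact binomial adjusted p of 0.216. Dnm2 had a ratio of 1.07 (1.01 to 1.14, adjusted p 0.115 in the same exact test). The other ratios were 1.05 for Cavin4, 1.02 for Jph2, 1.01 for Ank2, 0.999 for Cav3, 0.997 for Dysf, 0.973 for Jph1 and 0.918 for Mtm1, and none of these passed the adjusted threshold. Without the composition factor, scaled by total counts, 7 of the 10 members differed, and with DESeq2 size factors 1. In the second quantification 2 differed, Cavin1 and Jph2 (log2 ratio 0.05, exact binomial adjusted p 0.00544). The share of all genes that differed with no fold minimum was not determined for these alternative settings. Counts under them, here and in the lists below, are therefore not a result about the members or lists.

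**Figure D4:**
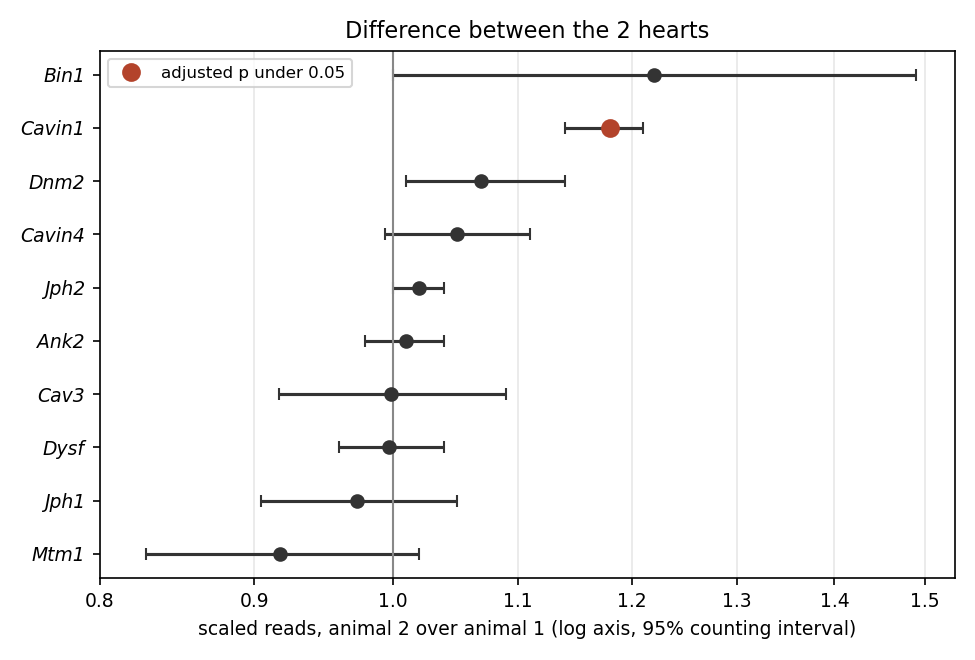
Ratio of scaled reads, animal 2 over animal 1, on a log axis with 95% exact counting intervals for the 10 genes. Cavin1, in red, is the gene with an adjusted p under 0.05, at 1.18; the interval of Bin1, from 1.00 to 1.49, is the widest.

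Genes of the same membrane systems, listed by function, were compared between the hearts in the same way. By the exact binomial test, 0 genes of the 5 lists were called at 2-fold, and the count was also 0 with total-count scaling, DESeq2 size factors, no count filter and the second quantification. At an unadjusted p under 0.05 stood 7 genes of the caveola list, 5 of the dyad and T-tubule list, 6 of the ferlin list, 4 of the dynamin list and 6 of the ankyrin list. The share of all genes at that threshold was not determined, so these counts are not a result about the lists. With no fold minimum, where 6.60% of all genes tested differed upward and 4.75% downward in animal 2, the caveola list had 6 of 11 genes higher in animal 2 and 0 lower, namely Cav1, Cav2, Cavin2, Cavin3, Ehd1 and Ehd2, and with total-count scaling 9 genes differed. Cav1 stood at 93.5 TPM in animal 2 and 67.7 TPM in animal 1 (ratio 1.16, 1.12 to 1.20). The highest of that list, Ehd4, a membrane ATPase of the EHD family, stood at 145 TPM in animal 2 and 121 TPM in animal 1 with a ratio of 0.992, and Pacsin2 and Pacsin3, which bend membrane, averaged 98.6 and 56.2 TPM and did not pass the test. Endothelial markers (5 of 6), fibroblast markers (4 of 5) and mural markers (5 of 5) also differed toward animal 2. Their sums were 434 and 340.1 TPM for endothelial, 325 and 242 TPM for fibroblast and 236 and 168 TPM for mural markers in animal 2 and animal 1. These sums include the shift of TPM toward animal 2 given above. On scaled reads the median log2 ratio was 0.14 for endothelial, 0.28 for fibroblast and 0.25 for mural markers. All 3 tested adipocyte markers differed in the same direction, with Adipoq and Cfd past 2-fold. None of these markers was at 0, and their part in the Cavin1 and caveola result was not tested.

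In the dyad and T-tubule list, 1 of 8 tested genes was higher in animal 2, Slc8a1 with a ratio of 1.04. Lower in animal 2 were 3, Cacna1c with 0.859, Tcap with 0.874 and Ryr2 with 0.949. Of all genes tested, 6.60% differed upward in animal 2 and 4.75% downward, with no fold minimum. Scaled by total counts, 4 genes were higher in animal 2, Slc8a1 with a ratio of 1.10, Speg and Asph with 1.07 each and Tmem38a with 1.04. Under that scaling 2 were lower, Cacna1c and Tcap, and Ryr2, at a ratio of 1.00, no longer differed. Of the 6 cardiomyocyte markers, 4 were also lower in animal 2 with TMM factors, and 1 was higher. The lower ones were Myh6 with a ratio of 0.949, Pln with 0.950, Tnnt2 with 0.978 and Ryr2, which is in both lists. With total-count scaling none of these 4 was lower. Myh6, Pln and Ryr2 then stood at 1.00 and did not differ, while Tnnt2 (1.03), Tnni3 (1.05) and Actc1 (1.13) were higher. The summed level of the 6 markers was 24145 TPM in animal 2 and 21119.7 TPM in animal 1, a sum that includes the shift of TPM toward animal 2. On scaled reads their median log2 ratio was -0.05. Their part in the dyad and T-tubule result was not tested. Its highest gene was Tcap, a Z-disc protein that also binds at T-tubules, at 481 TPM in animal 2 and 469.8 TPM in animal 1. Next came Ryr2, the calcium release channel of the reticulum, at 386 TPM in animal 2 and 357 TPM in animal 1. They were followed by Slc8a1, the sodium-calcium exchanger, with a mean of 173 TPM, and Tmem38a, a cation channel of the reticulum, with 169 TPM. The summed level of that list was 1610.2 TPM in animal 2 and 1476 TPM in animal 1, with the same shift, and its median log2 ratio of scaled reads was -0.04.

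In the ferlin and membrane repair list, 6 of 11 tested genes were higher in animal 2 and 0 lower, against 6.60% of all genes tested higher and 4.75% lower. The endothelial, fibroblast, mural and adipocyte markers given above differed in the same direction, and their part in this count was not tested. Ahnak, a giant scaffold protein, averaged 119 TPM, Trim72, the muscle protein MG53 of membrane repair, 100.1 TPM, and the calcium-binding annexins Anxa6 and Anxa5 83.5 and 47.6 TPM. Otof, Fer1l4 and Fer1l5, other members of the ferlin family, were at 0.00 TPM in both animals. In the dynamin, amphiphysin and myotubularin list 0 of 13 genes differed by the exact binomial test with no fold minimum, with 4 at an unadjusted p under 0.05, 0 with DESeq2 size factors and 3 with total counts; its highest was Dnm1l, the mitochondrial fission dynamin, at 39.6 TPM, followed by Mtmr1, Fig4 and Mtmr2 at 9.91, 9.41 and 8.21 TPM. In the ankyrin and spectrin list 2 of 6 genes were higher in animal 2, Sptbn1 with a ratio of 1.07 and Sptan1 with 1.14. Sptb was lower, with a ratio of 0.927, and no longer differed with total-count scaling. Under that scaling 4 of the 6 genes differed, all of them higher in animal 2, with Sptbn1, Sptan1 and Ank1 (ratio 1.09) among them. The spectrin genes Sptbn1 and Sptan1 averaged 202 and 66.6 TPM, and Ank1, the ankyrin best known from red blood cells, 137 TPM.

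**Figure D5:**
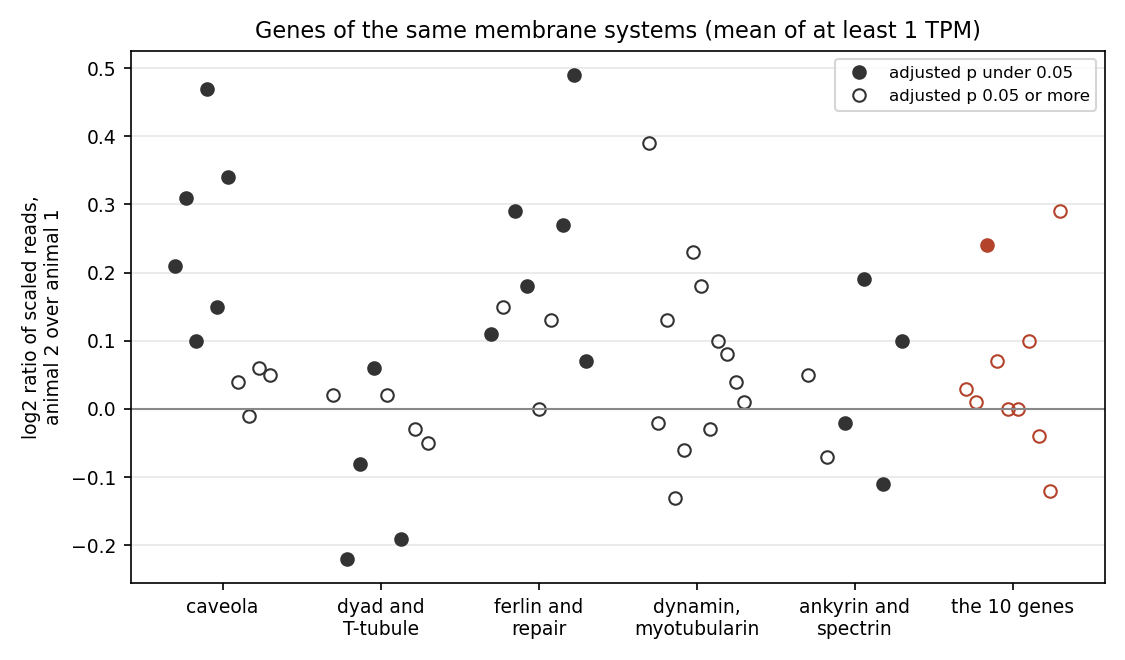
Log2 ratio of scaled reads, animal 2 over animal 1, for the genes of 5 lists with a mean of at least 1 TPM and, in red, for the 10 members; filled points have an adjusted p under 0.05. In the caveola list 6 points are filled and all of them lie above 0, while in the dyad and T-tubule list 3 of the 4 filled points lie below 0.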

How the data were processed

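Total RNA-seq of heart tissue from 2 animals, 1 library each, was analysed from the authors' deposited tables. Per the file headers, the authors deposited expected counts of reads per gene and transcript (estimates that need not be whole), with a posterior standard deviation called the assignment spread here, and TPM made from them. A second set of transcript tables, also deposited by the authors, holds estimated counts and TPM of its own. Per the labels the assembly is mm10. Aligner and quantifier versions: not given in the sources used here. Gene symbols came from the second transcript tables (55450 genes) and transcript structure from GENCODE M21. Estimated counts were rounded before testing. The 26248 entries with a number for a name held 4.76e-06% of reads in animal 2 and 9.50e-06% in animal 1 and were left out. Effective length was 99 bases below length in the first set and 327 (animal 2) and 326 (animal 1) below it in the second.

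Levels are given per animal and as mean ± SD over 2 animals. Segments are coding stretches that some protein-coding transcripts hold and others that span them lack. The libraries were compared with a two-sided exact binomial test on counts scaled by edgeR 4.0.16 TMM factors, for genes with at least 20 reads over both animals, with Benjamini-Hochberg adjustment (Python 3.11.15, scipy 1.17.1). With 1 group and no second condition, edgeR's quasi-likelihood test had no comparison to make. On simulated data with a known 3-fold change the test was checked. DESeq2 1.42.0 size factors were tried as an alternative. The 10 members, the lists and the markers were chosen with earlier results of these data known. Named are the 10 members, the 4 highest genes of each list, any list gene past 2-fold, each member's major transcript and any transcript with at least 10% of the gene. Other transcripts and relatives of the members were named after their values were seen. No genes are named for a similar pattern, since 2 libraries of 1 group give a single ratio per gene. Promoter sequences are from RefSeq (GRCm38.p6). No sequence of Bin1 is given, and 1 gene of the ankyrin and spectrin list is not reported here. Intervals and floors cover counting error only.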

Additional observations from a re-analysis of the deposited data

How the results depend on the processing

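In the second quantification the means were 4.59 TPM for Bin1, 37.3 for Cav3, 104 for Cavin1, 47.3 for Cavin4, 10.7 for Jph1, 55.3 for Dysf and 8.12 for Mtm1. Over nuclear protein-coding genes alone they were 7.79 for Bin1, 69.1 for Cav3, 197 for Cavin1, 97.3 for Cavin4, 21.9 for Jph1, 378 for Jph2, 97.6 for Dysf, 15.7 for Mtm1, 59.8 for Dnm2 and 263 for Ank2. Over transcripts of at least 1000 bases, an alternative chosen after seeing the data, Dysf was 22.0 and Ank2 58.8 TPM. The second quantification gave Bin1-205 61.1%, Cavin1-201 92.5%, Jph1-201 98.6%, Jph2-201 95.9%, Dysf-207 53.5% and Mtm1-213 75.2% of the TPM of the gene. By reads, Bin1-205 held 69.8%, Cavin1-201 99.0%, Dysf-207 3.79%, Dnm2-202 43.6% and Ank2-215 3.62%. All member transcripts are in both sets of tables, so shares over shared transcripts were unchanged. The ratio of Jph2 to Jph1 was 15.9 and the summed levels of the caveola, dyad and dynamin lists 655, 1672 and 122 TPM in the second quantification. With no fold minimum 1831 genes differed, against 222 at 2-fold. Segment shares over complete coding transcripts alone were also chosen after seeing the data; there the Dnm2 30-base and Ank2 92-base segments had a share of 0, since incomplete transcripts alone hold them. The log2 ratio of Cav3, 0.00 in the main setting before its sign, changed sign with total counts (0.08). It also did with DESeq2 size factors (0.00), no count filter (0.00) and the second quantification (0.01). With total counts the log2 ratio of Jph1 went from -0.04 to 0.04 and that of Dysf from 0.00 to 0.08. Total-count scaling leaves out the TMM factors, 1.027890 in animal 2 and 0.972867 in animal 1, for every gene alike. For the other settings the cause was not tested. No paired analysis was possible because there is 1 group. Depth limits Bin1 most, at 185 to 238 reads per animal.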
